A study of Mus musculus with 12 samples.

Results

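Heart and gastrocnemius, a fast limb muscle of the calf, were compared in mice without a tumour. The comparison used the 3 arrays of NTB heart (NTB, non-tumour-bearing) and the 3 arrays of NTB gastrocnemius, which are 6 of the 12 arrays in the series, and all 19307 genes that could be named were tested. All mice were Balb/c-DBAj hybrids aged 10 to 11 weeks. NTB mice received 100 µl of RPMI/PS, the medium of the tumour cells, with no cells in it. The other 6 arrays came from C26 heart and C26 gastrocnemius, taken from mice given C26 carcinoma cells in the same volume, and they serve here as a second set of hearts and muscles, and for a test of whether the tissue difference differed between NTB and C26 mice. Each tissue was taken whole, so an array reads all cell types of the organ, and in such bulk samples fewer cells of a type and less RNA per cell cannot be told apart. The protocols place heart and muscle in separate cohorts of mice, so that tissue and cohort cannot be told apart in any value below.

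Both organs are striated muscle and build the same contractile machine, in which myosin thick filaments pull on actin thin filaments once calcium binds troponin. Most of its parts are encoded by small gene families, and heart and fast limb muscle draw on different members of them. Heart muscle beats without pause, burns mainly fatty acids, carries its own pacemaker and conducts current from cell to cell through gap junctions. Gastrocnemius is built mostly of fast fibres, each driven by a motor nerve, and meets bursts of work from glycogen.

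Over all genes, 8486 of 19307 were called different between NTB heart and NTB gastrocnemius, which is 44.0% of those tested. Called here means an adjusted p under 0.05 in limma with Benjamini-Hochberg adjustment over all genes. Of these, 5152 (26.7% of all tested) were higher and 3334 (17.3%) lower in NTB heart, and 2668 genes (13.8%) also differed at least 2-fold, 1684 higher (8.72%) and 984 lower (5.1%). The 3 arrays of one tissue did not overlap with the 3 of the other for 10249 genes (53.1%). The excess of higher genes did not hold for wide differences, with 86 genes higher and 95 lower at 8-fold or more, 41 and 41 at 16-fold or more, and 3 and 11 at 128-fold or more. The median difference over all genes was 0.052 on the log2 scale, and the median standard error of a difference was 0.13. Arrays of one tissue correlated at 0.987 to 0.989 among hearts and 0.973 to 0.980 among gastrocnemius muscles over all rows, and arrays of different tissues at 0.911 to 0.921. The median SD of a gene over 3 arrays was 0.112 in NTB heart and 0.161 in NTB gastrocnemius, so that the limb muscles varied more among themselves.

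All values below are log2 RMA values, and each difference is the mean of NTB heart minus the mean of NTB gastrocnemius (n = 3 arrays each) followed after ± by its standard error in the fit. The medians of the 6 arrays lay between 5.96 and 6.06. Whether a level near or below these medians is expression or background was not tested, because no detection calls were used. A fold change against such a level is a ratio of array signals.

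**Figure D1:**
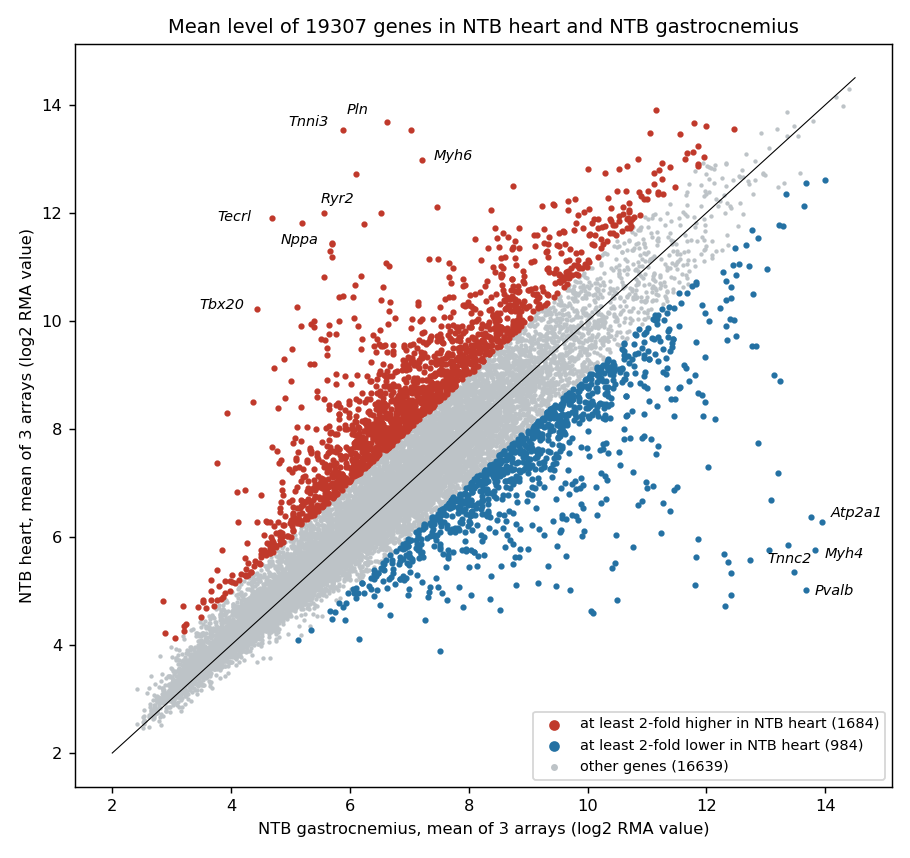
Mean log2 RMA value of each of 19307 genes in NTB heart (vertical axis) against NTB gastrocnemius (horizontal axis), n = 3 arrays each. The 1684 red genes were called and at least 2-fold higher in NTB heart, the 984 blue genes at least 2-fold lower, and the line marks equal levels.

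The markers of both labelled tissues stood where the labels put them. All 9 heart muscle markers were higher in NTB heart, by 1.78 (Nkx2-5) to 7.66 (Tnni3), and all 9 limb muscle markers were lower, by -3.15 (Myod1) to -8.08 (Myh4). Genes of the contractile machine and of its calcium supply were among those with the widest separation. Tnni3, the inhibitory troponin subunit of heart, had 13.52, 13.48 and 13.62 in NTB hearts, against 6.19, 5.72 and 5.73 in NTB gastrocnemius, a 202-fold difference (7.66 ± 0.13, adjusted p = 1.57e-13). Pln, phospholamban, which restrains the calcium pump of heart, had 13.62, 13.75 and 13.70 in NTB hearts and 6.85, 6.52 and 6.50 in NTB gastrocnemius (7.07 ± 0.12). Every heart array lay far above every limb array for both genes. Tecrl, an enoyl reductase-like gene of the endoplasmic reticulum whose loss causes inherited arrhythmia in humans, had 11.84, 11.97 and 11.92 in NTB hearts and 4.59, 5.02 and 4.44 in NTB gastrocnemius, 150-fold apart. The atrial natriuretic peptide gene Nppa differed by 6.63 ± 0.14, the stress-responsive nuclear and titin-bound Ankrd1 by 6.61 ± 0.15, and the muscarinic receptor Chrm2, through which the vagus slows the heart, by 5.75 ± 0.14.

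In the other direction the largest differences were led by genes of fast fibres. They also included the skeletal muscle release channel Ryr1 (-7.16 ± 0.11) and the myosin binding protein gene Mybpc1 (-6.68 ± 0.22). Pvalb, the parvalbumin that soaks up calcium to speed relaxation, had 5.12, 4.72 and 5.23 in NTB hearts, against 13.58, 13.82 and 13.60 in NTB gastrocnemius, a 400-fold difference (-8.64 ± 0.14, adjusted p = 1.29e-13). Fast troponin C, Tnnc2, had 5.39, 5.32 and 5.34 in NTB hearts and 13.38, 13.48 and 13.58 in NTB gastrocnemius (-8.13 ± 0.10). The arrays of the tissues were separated by over 7 log2 units in both. Myh4, the myosin heavy chain of the fastest fibres, had 6.29, 5.73 and 5.23 in NTB hearts and 13.76, 13.91 and 13.81 in NTB gastrocnemius (-8.08 ± 0.20). The fast calcium pump gene Atp2a1 had 6.49, 6.14 and 6.17 in NTB hearts, against 13.92, 13.95 and 13.96 in NTB gastrocnemius (-7.68 ± 0.11). AMP deaminase, Ampd1, which clears AMP in working fast muscle, differed by -7.59 ± 0.12, and alpha-actinin 3, Actn3, by -7.52 ± 0.11. Of the 20 genes listed as fast fibre genes, all were lower in NTB heart, with a median difference of -6.51, where the median over all genes was 0.052.

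The 250 bases before the start of 4 of these genes are shown, because 2 rank among the highest in NTB heart relative to gastrocnemius and 2 among the lowest. The sequences are from RefSeq (GRCm38.p6), written 5′ to 3′ on the gene's own strand, and they end at the base before the annotated start. Capitals mark every match on either strand to the motifs searched, which were the E-box CAGCTG, the GATA motif AGATAA, the M-CAT motif CATTCC, the TATA box TATAAA, the nuclear receptor half-site AAGGTCA, the MEF2 motif and the CArG box.
Tecrl, chr5:83355196-83355445, minus strand: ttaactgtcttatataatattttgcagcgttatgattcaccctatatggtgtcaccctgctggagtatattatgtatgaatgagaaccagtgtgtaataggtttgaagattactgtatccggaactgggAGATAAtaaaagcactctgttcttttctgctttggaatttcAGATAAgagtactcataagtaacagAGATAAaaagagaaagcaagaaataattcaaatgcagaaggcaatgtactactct
Nppa, chr4:148000472-148000721, plus strand: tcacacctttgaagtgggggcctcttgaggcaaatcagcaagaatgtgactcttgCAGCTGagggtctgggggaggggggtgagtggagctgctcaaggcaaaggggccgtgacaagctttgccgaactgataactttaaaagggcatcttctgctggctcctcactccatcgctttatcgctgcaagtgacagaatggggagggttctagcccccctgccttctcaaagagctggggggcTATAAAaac
Myh4, chr11:67237562-67237811, plus strand: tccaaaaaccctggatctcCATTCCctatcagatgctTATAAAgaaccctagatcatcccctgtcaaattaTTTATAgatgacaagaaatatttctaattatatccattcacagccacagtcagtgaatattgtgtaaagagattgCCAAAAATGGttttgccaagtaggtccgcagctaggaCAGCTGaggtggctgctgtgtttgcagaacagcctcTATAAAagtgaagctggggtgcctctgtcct
Atp2a1, chr7:126463074-126463323, minus strand: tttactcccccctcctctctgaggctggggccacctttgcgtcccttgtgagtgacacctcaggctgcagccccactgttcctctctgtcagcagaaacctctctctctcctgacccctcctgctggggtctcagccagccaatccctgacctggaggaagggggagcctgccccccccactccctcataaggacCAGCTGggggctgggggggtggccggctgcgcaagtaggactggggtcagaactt
The Tecrl window held 3 matches to AGATAA, the first of them starting 121 bases before the gene's start, and the windows of Nppa, Myh4 and Atp2a1 held 1 match to CAGCTG each. Myh4 also held a CArG box that began 104 bases before the start and TATAAA at 31 bases before it. Over all promoter windows, 18364 windows of 14912 genes, 12.8% held CAGCTG and 8.21% held AGATAA. Among genes at least 8-fold lower in NTB heart, 28.1% of 89 windows held CAGCTG and 3.37% held AGATAA. Among genes at least 8-fold higher, 15.6% of 96 windows held CAGCTG, 18.8% held AGATAA and 7.29% held a CArG box, which 1.34% of all windows held. Of all windows, 11.5% held CATTCC, 10.4% TATAAA, 3.48% AAGGTCA and 0.425% the MEF2 motif. In windows of genes at least 8-fold higher these shares were 16.7%, 11.5%, 1.04% and 1.04%. For genes at least 8-fold lower they were 12.4%, 14.6%, 3.37% and 2.25%, and 1.12% of windows held a CArG box. CAGCTG is the sequence that myogenic factors such as Myod1 bind, and AGATAA is bound by GATA factors. At the 2-fold rule the shares lay nearer to those of all windows, with AGATAA in 8.23% of windows of genes higher in NTB heart and CAGCTG in 15.2% of windows of genes lower in it. A match is only a match of letters, some genes have several windows, and the classes were formed from the values above.

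The pairs of related genes were then followed one role at a time. The pairs set a gene known from heart, or a general form of it, beside a related gene known from striated or fast limb muscle, and Mylpf and Myl1 stand in 2 pairs each. Of 37 pairs, 36 had both members measured, and in 28 of these the first member was higher and the second lower in NTB heart. The first member was higher in 30 pairs and the second lower in 34. The myosin heavy chain of adult mouse heart, Myh6, had 12.98, 12.97 and 12.99 in NTB hearts and 7.47, 6.99 and 7.20 in NTB gastrocnemius, while Myh4 showed the reverse, as given above. Troponin T took the same form, with Tnnt2 at 6.52 ± 0.11 and Tnnt3 at -7.40 ± 0.12. Among the myosin binding proteins, which set the reach of the cross-bridges, Mybpc3 differed by 5.55 ± 0.11 and Mybpc2 by -5.15. For the ruler of the thin filament, the short heart form Nebl differed by 4.50 ± 0.14 and full nebulin, Neb, by -6.03 ± 0.13.

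In the remaining 8 measured pairs the rule of opposite members did not hold. The alpha-tropomyosin gene Tpm1 and the beta-tropomyosin gene Tpm2 were both lower in NTB heart, Tpm1 only by -0.74 ± 0.09 and Tpm2 by -4.72 ± 0.12. The junctophilins, which tie the calcium store to the surface membrane, were both lower, Jph2 by -0.85 ± 0.14 and Jph1 by -3.49 ± 0.13. The thin filament capping gene Tmod1 had 11.00, 10.99 and 11.01 in NTB hearts and 10.98, 11.06 and 10.99 in NTB gastrocnemius. These arrays overlapped, and Tmod1 was not called (adjusted p = 0.961), whereas its fast partner Tmod4 was lower by -3.18. Lmod3, which seeds actin filaments, was not called (-0.11 ± 0.12) beside Lmod2 at 2.61 ± 0.10. Both forms of cytochrome oxidase subunit 6a were higher in NTB heart, the form of heart and skeletal muscle, Cox6a2, by 1.37 ± 0.11 and the general form, Cox6a1, by 0.44 ± 0.14, but the call of Cox6a1 was lost without any one of the NTB hearts or without NTB gastrocnemius 3 (adjusted p up to 0.0904). Both glycerol-3-phosphate dehydrogenases were lower, the mitochondrial Gpd2 by -3.56 ± 0.12 and the cytosolic Gpd1 by -2.77 ± 0.12. Eno1 and Rpl3 were not called (0.27 ± 0.11, adjusted p = 0.0607, and 0.32 ± 0.13, adjusted p = 0.0666), but Eno1 was called without NTB gastrocnemius 2 (adjusted p = 0.0258) and Rpl3 without NTB gastrocnemius 2 or NTB heart 2 (adjusted p = 0.0223 and 0.0393).

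**Figure D2:**
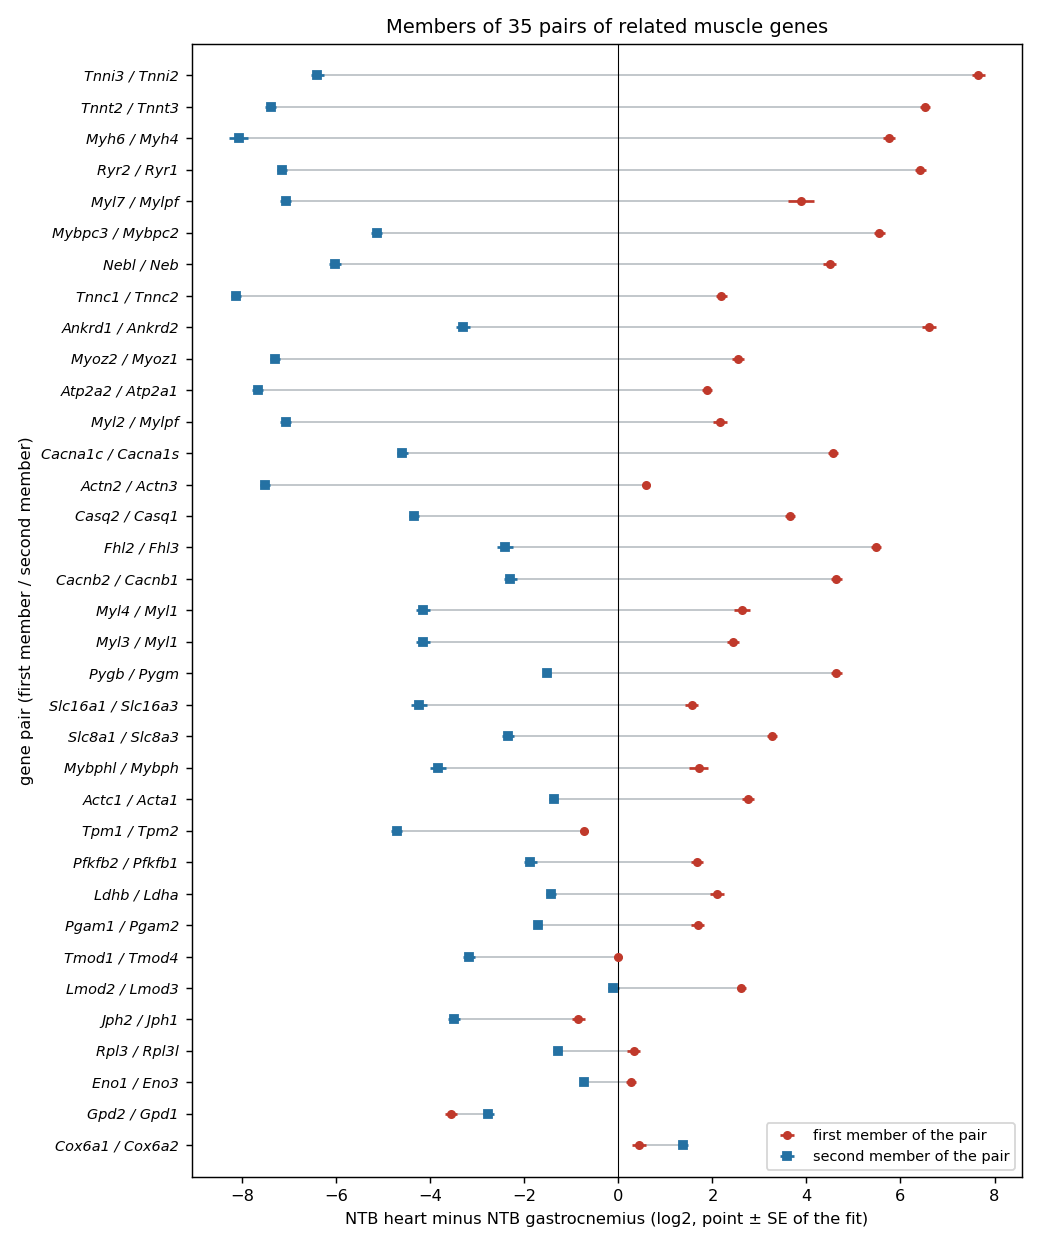
Difference of NTB heart minus NTB gastrocnemius in log2 units (horizontal axis, point ± SE of the fit, n = 3 arrays each) for both members of 35 pairs of related genes, all measured pairs but 1. Red circles are the first and blue squares the second member of a pair, and most pairs straddle 0, with Tnni3 and Tnni2 the widest apart. On one side lie Cox6a1 with Cox6a2, Gpd2 with Gpd1, Tpm1 with Tpm2, Jph2 with Jph1 and Tmod1 with Tmod4, with Tmod1 at -0.0067.

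The thick filament list held 20 measured genes, 8 higher and 12 lower in NTB heart, and the thin filament list 20, 6 higher and 12 lower. Their median differences were -0.67 and -1.13. Cardiac actin, Actc1, had 13.91, 13.91 and 13.90 in NTB hearts and 10.86, 11.47 and 11.11 in NTB gastrocnemius (2.76 ± 0.13). Skeletal actin, Acta1, was among the 10 genes with the highest mean over the 6 arrays and had 12.76, 12.50 and 12.56 in NTB hearts and 14.0, 13.95 and 14.02 in NTB gastrocnemius (-1.38 ± 0.09). Both actins thus read well above the array medians in both tissues, and probes of such near-identical paralogues, as of Myh1, Myh2 and Myh4, may share signal. Of 30 genes of the Z disc and M band, which anchor thin and thick filaments, 8 were higher and 22 lower. Fhl2, a LIM adaptor of heart, differed by 5.48 ± 0.11 and the stretch-linked Csrp3 by 2.88 ± 0.12, against Myoz1 at -7.30 ± 0.11, Myot at -3.24 ± 0.12 and the titin cap gene Tcap at -2.68 ± 0.12.

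Slow fibre genes, which heart and slow limb fibres are known to share in part, did not move as one. Of 14 measured, 9 were higher and 5 lower in NTB heart, with a median of 1.65. The slow light chains Myl2 and Myl3 were higher by 2.16 ± 0.15 and 2.44 ± 0.12, slow and cardiac troponin C, Tnnc1, by 2.19 ± 0.12, and calsequestrin 2, Casq2, by 3.66 ± 0.10. The slow limb forms of the other troponins were lower, Tnni1 at 6.15, 5.53 and 6.45 in NTB hearts against 9.58, 9.24 and 8.98 in NTB gastrocnemius (-3.22 ± 0.21), and Tnnt1 by -3.39 ± 0.17. Slow tropomyosin, Tpm3, was lower by -2.83 ± 0.10. Myh7, the slow myosin heavy chain of limb muscle and of the fetal heart, was looked at after the values were seen. It had 9.66, 10.03 and 10.17 in NTB hearts and 10.91, 10.54 and 10.67 in NTB gastrocnemius, lower in NTB heart by -0.75 ± 0.14 without overlap of the arrays (adjusted p = 0.000637).

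Calcium store genes split by partner in the same way. Of 27 measured, 8 were higher and 18 lower in NTB heart, with a median of -1.8. The release channel of heart, Ryr2, had 12.05, 11.97 and 11.94 in NTB hearts and 5.59, 5.43 and 5.66 in NTB gastrocnemius (6.42 ± 0.11). That of skeletal muscle, Ryr1, had 5.60, 5.52 and 5.61 in NTB hearts and 12.59, 12.79 and 12.83 in NTB gastrocnemius (-7.16 ± 0.11). The pore of the L-type calcium channel followed, with Cacna1c at 4.56 ± 0.11 and Cacna1s at -4.60 ± 0.11, and so did its beta subunit, with Cacnb2 at 4.63 ± 0.12 and Cacnb1 at -2.30. Stac3, an adaptor needed for voltage to trigger release in skeletal muscle, was lower by -4.94 ± 0.15. The pump Atp2a2 read high in both tissues, 13.69, 13.65 and 13.65 in NTB hearts and 11.71, 12.02 and 11.64 in NTB gastrocnemius (1.88 ± 0.10), while Atp2a1 was near the array median in NTB heart. Slc8a1, which pumps calcium out of the heart cell in exchange for sodium, was higher by 3.27, and its relative Slc8a3 lower by -2.35.

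Among the genes that carry current, 17 of 26 cardiac channel genes were higher and 3 lower in NTB heart, and 9 of 10 skeletal muscle channel genes were lower and 0 higher. Kcnip2 and Kcnd2, which form the transient outward current, were higher by 4.59 ± 0.13 and 3.87 ± 0.13. Kcnj3 and Kcnj5, the potassium channel opened by the vagus, were higher by 3.29 ± 0.18 and 3.14 ± 0.13. The sodium channel of skeletal muscle, Scn4a, had 8.03, 7.68 and 7.76 in NTB hearts and 10.86, 11.20 and 11.11 in NTB gastrocnemius. These arrays did not overlap. The chloride channel Clcn1, which steadies the resting voltage of limb fibres, was lower by -3.89 ± 0.13. The 3 cardiac channel genes that were lower in NTB heart were the sodium channel subunit Scn4b (-2.04 ± 0.11), the channel of ATP-sensitive current Kcnj11 (-1.17 ± 0.15) and the inward rectifier Kcnj12 (-0.88 ± 0.13), while the inward rectifier Kcnj2 was not called (-0.10).

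The junctions between heart cells were the next group. Of 17 genes of the intercalated disc and gap junctions, 13 were higher and 1 lower in NTB heart, with a median of 1.54. N-cadherin, Cdh2, had 11.32, 11.31 and 11.24 in NTB hearts and 5.55, 6.06 and 5.41 in NTB gastrocnemius (5.61 ± 0.15). Connexin 43, Gja1, had 11.09, 11.04 and 11.07 in NTB hearts and 7.76, 7.73 and 7.51 in NTB gastrocnemius (3.40 ± 0.11), and the desmosomal Pkp2 differed by 4.28 ± 0.11. The exception that was lower, Nexn, an actin-binding Z disc gene, differed by -0.90 ± 0.14, and connexin 40, Gja5, was not called (-0.18).

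The endplate genes of limb muscle gave the mirror image in part. Of 16 neuromuscular junction genes, 8 were lower, 3 higher and 5 not called in NTB heart. Musk, the kinase that gathers acetylcholine receptors under the nerve, had 5.65, 5.69 and 5.62 in NTB hearts and 9.75, 9.93 and 9.20 in NTB gastrocnemius (-3.97 ± 0.16). The adult receptor subunit Chrne was lower by -2.51 ± 0.12 and the alpha subunit Chrna1 by -2.05 ± 0.18. The genes higher in NTB heart were Agrn, Phldb2 and Prkar1a, by 0.66 to 0.81, and these are used well beyond the endplate. Of 20 adrenergic and muscarinic signalling genes, 11 were higher and 3 lower, with Chrm2 and the adenylate cyclase Adcy5 (2.56) at the top. The beta-1 receptor Adrb1, looked at after the values were seen, overlapped between the tissues and was not called (0.25 ± 0.16, adjusted p = 0.229).

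The regulators of heart and limb identity lay far apart. Of 22 cardiac transcription factor genes, 19 were higher and 1 lower in NTB heart, with a median of 1.77. Tbx20 had 10.24, 10.26 and 10.17 in NTB hearts and 4.68, 4.20 and 4.44 in NTB gastrocnemius (5.78 ± 0.14), Tbx5 differed by 3.80 ± 0.21, Myocd, a partner of serum response factor, by 4.06 ± 0.11, Gata6 by 3.86 ± 0.12 and Gata4 by 2.73 ± 0.14. The gene that was lower was Smyd1 (-0.65 ± 0.10), a methyltransferase used by both kinds of striated muscle. Of 22 skeletal myogenic and limb factors, 14 were lower and 2 higher. Myf6, the myogenic factor of mature fibres, had 4.78, 4.84 and 4.89 in NTB hearts and 10.64, 10.26 and 10.56 in NTB gastrocnemius (-5.65 ± 0.13). Tbx15 differed by -5.43 ± 0.14 and Myod1 by -3.15 ± 0.19. The 2 that were higher were Meox2, which endothelial cells also use (1.14 ± 0.12), and Meox1 (0.42), whose call was lost without NTB heart 1, NTB heart 3 or NTB gastrocnemius 1 (adjusted p up to 0.109).

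HOX genes, which give cells their place along the body and limb, were lower in NTB heart where they differed. Of 39 measured, 21 were lower, 1 higher and 17 not called, with a median of -0.42. The largest differences were those of Hoxc10, at 4.77, 4.75 and 4.39 in NTB hearts against 8.25, 8.75 and 8.6 in NTB gastrocnemius (-3.89 ± 0.16), and Hoxd8, at 5.05, 5.22 and 5.07 in NTB hearts against 8.69, 8.73 and 8.97 in NTB gastrocnemius (-3.69 ± 0.13). Hoxd10 differed by -2.27 ± 0.15. By cluster, 7 of 9 Hoxc genes and 8 of 11 Hoxa genes were lower, against 4 of 9 Hoxd genes and 2 of 10 Hoxb genes. Over all genes 17.3% were lower. By number, 11 of 13 genes numbered 8 to 11 were lower, with a median of -1.37, and 4 of 12 numbered 1 to 4, with a median of -0.13. The single higher gene, Hoxb2 (0.47 ± 0.15), was no longer called without NTB heart 2 or NTB gastrocnemius 3 (adjusted p = 0.103 and 0.073), and the blocks by cluster and number were set after the values were seen.

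**Figure D3:**
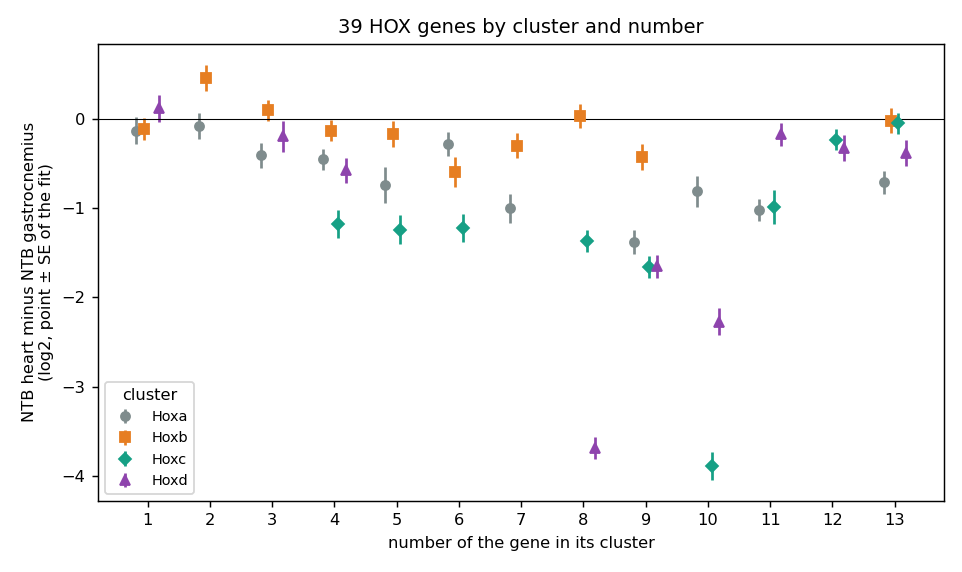
Difference of NTB heart minus NTB gastrocnemius in log2 units (vertical axis, point ± SE of the fit, n = 3 arrays each) for 39 HOX genes against their number in the cluster (horizontal axis), with the cluster given by colour and marker. Hoxc10 and Hoxd8 lie lowest, at -3.89 and -3.69, and the Hoxb genes stay near 0.

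MicroRNAs that shape muscle were read by rows for their hairpins, a proxy for the precursor and not for the mature strand. The mature sequences of 3 of them are printed, with bases 2 to 8, the seed that pairs with targets, in capitals (RefSeq, GRCm38.p6).
miR-208a-3p, chr14:54949072-54949093, minus strand: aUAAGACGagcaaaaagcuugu
miR-499-5p, chr2:155622893-155622913, plus strand: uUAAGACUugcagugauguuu
miR-1a-1-5p, chr2:180389057-180389079, plus strand: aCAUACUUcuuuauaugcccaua
The seeds of miR-208a-3p and miR-499-5p differ from each other only in base 8, and that of miR-1a-1-5p differs from both. Of Mir1a-1 only the 5p strand is printed, and not the 3p strand from the other arm of the hairpin. Mir208a, which lies within an intron of Myh6, had 6.42, 5.71 and 6.71 in NTB hearts and 4.48, 3.89 and 4.01 in NTB gastrocnemius (2.15 ± 0.23), in the same direction as its host. Mir1a-1 had 4.04, 3.68 and 3.96 in NTB hearts, against 7.60, 7.07 and 7.85 in NTB gastrocnemius (-3.62 ± 0.18), and its neighbour Mir133a-2 differed by -2.03 ± 0.16. Of the 8 hairpins measured, 1 was higher, 3 lower and 4 not called. The shares over all genes were 44.0% called, 26.7% higher and 17.3% lower, and this short list was not tested against them. Mir499, which lies within a gene of the myosin family and is given because its sequence is printed, had 4.58, 4.20 and 4.57 in NTB hearts and 4.12, 4.12 and 4.20 in NTB gastrocnemius, which met at 4.20, and was not called (0.30 ± 0.13, adjusted p = 0.0812). Mir206, whose mature form is a limb muscle microRNA, had 2.58, 2.84 and 2.75 in NTB hearts and 2.69, 2.92 and 2.86 in NTB gastrocnemius, far under the array medians in both.

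Secreted factors separated the organs as well. Of 26 genes, 15 were higher and 2 lower in NTB heart. Nppb, brain natriuretic peptide, had 10.44, 10.30 and 10.03 in NTB hearts and 5.05, 5.37 and 4.91 in NTB gastrocnemius (5.15 ± 0.15), and Corin, the protease that matures these peptides, differed by 4.4 ± 0.12. The 2 lower genes were myostatin, Mstn, a brake on muscle growth, at 5.21, 5.23 and 4.63 in NTB hearts against 9.59, 9.70 and 9.79 in NTB gastrocnemius (-4.67 ± 0.16), and osteocrin, Ostn, at -5.50 ± 0.16.

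The lists of atrial and ventricular genes were also read for differences among the hearts. All 11 genes of the ventricular list were higher in NTB heart, with a median of 3.4, and the widest range of any of them over the 3 hearts was 0.25. This list includes genes not confined to the ventricle, such as Myh6, the myosin heavy chain of adult mouse heart. Of 16 atrial genes, 10 were higher and 1 lower. Their median range was 0.38 over the hearts and 0.38 over the gastrocnemius muscles. Fat cell markers and thick filament genes had wider median ranges over the hearts, 0.52 and 0.44, and most other lists had narrower ones. The largest range of an atrial gene was 3.59 over the hearts, that of Bmp10 below, and 0.95 over the gastrocnemius muscles. Heart 3 was the highest for 9 of the 16, against 6 for heart 2 and 1 for heart 1. The atrial light chain Myl7 had 8.92, 9.25 and 10.32 in NTB hearts and 5.77, 5.80 and 5.28 in NTB gastrocnemius (3.88 ± 0.28). Myl4, also atrial, had 10.89, 11.02 and 11.61 in NTB hearts, and Mybphl 7.11, 7.17 and 7.98. Bmp10, a growth factor of the right atrium looked at after the values were seen, had 4.30, 4.37 and 7.89 in NTB hearts and 4.72, 4.27 and 4.45 in NTB gastrocnemius. It stood above gastrocnemius in heart 3 alone and was not called (1.04 ± 0.68, adjusted p = 0.246). Without heart 3, Bmp10 differed by -0.14 (adjusted p = 0.539) and Myl7 by 3.47, and the same 10 atrial genes were called higher and the same 1 lower.

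Mitochondrial genes were mixed rather than uniformly higher in NTB heart. Of 36 complex I genes, 21 were higher and 8 lower, with a median of 0.51, and of 42 genes of complexes II to V, 25 were higher and 9 lower, with a median of 0.37. Atp5g1, the proton-carrying ring of ATP synthase, was higher by 2.42 ± 0.11, Ndufb4 by 2.29 ± 0.17 and Ndufs8 by 2.06 ± 0.15. Ndufb7 and Ndufa4 were lower, by -1.43 ± 0.14 and -1.42 ± 0.10, and Ndufa4 is counted in the complex I list by its name only. The citric acid cycle list was nearly balanced, 11 higher and 9 lower of 29, with isocitrate dehydrogenase 2, Idh2, at 1.51 ± 0.11 and pyruvate carboxylase, Pcx, at -1.81 ± 0.12.

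Fatty acid genes leaned more to the heart. Of 47 measured, 37 were higher and 6 lower in NTB heart, with a median of 0.86. Ppargc1a, the coactivator that drives mitochondrial and fatty acid genes, had 11.20, 11.17 and 11.19 in NTB hearts and 8.68, 8.76 and 8.38 in NTB gastrocnemius (2.58 ± 0.12). Its partner Ppara was higher by 2.09 ± 0.14, the thioesterase Acot2 by 2.89 ± 0.15, Cpt2, which completes the entry of fatty acids into mitochondria, by 1.90 ± 0.12, and the fatty acid carrier Fabp3 by 1.42 ± 0.10. Those that were lower included the long-chain acyl-CoA synthetases Acsl3 (-1.52) and Acsl6 (-0.97) and the nuclear receptor Esrra (-0.91). Of 19 genes of ketone and branched-chain amino acid oxidation, 14 were higher, among them Bdh1 at 1.59 ± 0.14, and 2 were lower.

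Genes of sugar use lay on the other side. Of 31 glycolysis and lactate genes, 20 were lower and 7 higher in NTB heart, with a median of -0.76, and of 22 glycogen genes 14 were lower and 6 higher, with a median of -0.87. The lactate exporter of fast fibres, Slc16a3, had 7.01, 6.32 and 6.68 in NTB hearts and 10.84, 11.20 and 10.73 in NTB gastrocnemius (-4.25 ± 0.17). Pfkfb3, which sets the flux through phosphofructokinase, had 6.75, 6.59 and 6.56 in NTB hearts and 9.42, 10.20 and 11.07 in NTB gastrocnemius (-3.60 ± 0.29). The limb arrays of Pfkfb3 spread over more than 1 log2 unit, yet none reached the hearts. The lactate dehydrogenase subunits lay on opposite sides, with Ldhb at 2.10 ± 0.15 and Ldha at -1.44 ± 0.10. So did the forms of glycogen phosphorylase, with the brain form Pygb at 12.06, 12.14 and 12.11 in NTB hearts and 7.61, 7.57 and 7.25 in NTB gastrocnemius (4.63 ± 0.12), and the muscle form Pygm at -1.52 ± 0.09. The phosphorylase kinase subunits Phkg1 and Phka1 were lower by -3.98 ± 0.13 and -3.70 ± 0.10, and their relative Phka2 was higher by 1.27. Gapdh, often taken as a reference gene, differed by -0.03 ± 0.07 and was not called, although its arrays lay close to the top of the scale, from 14.15 to 14.18. In the phosphocreatine and purine list 7 genes were higher, 5 lower and 6 not called, with the mitochondrial adenylate kinase Ak4 at 3.99 ± 0.12 and muscle creatine kinase, Ckm, at -1.12 ± 0.08.

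**Figure D4:**
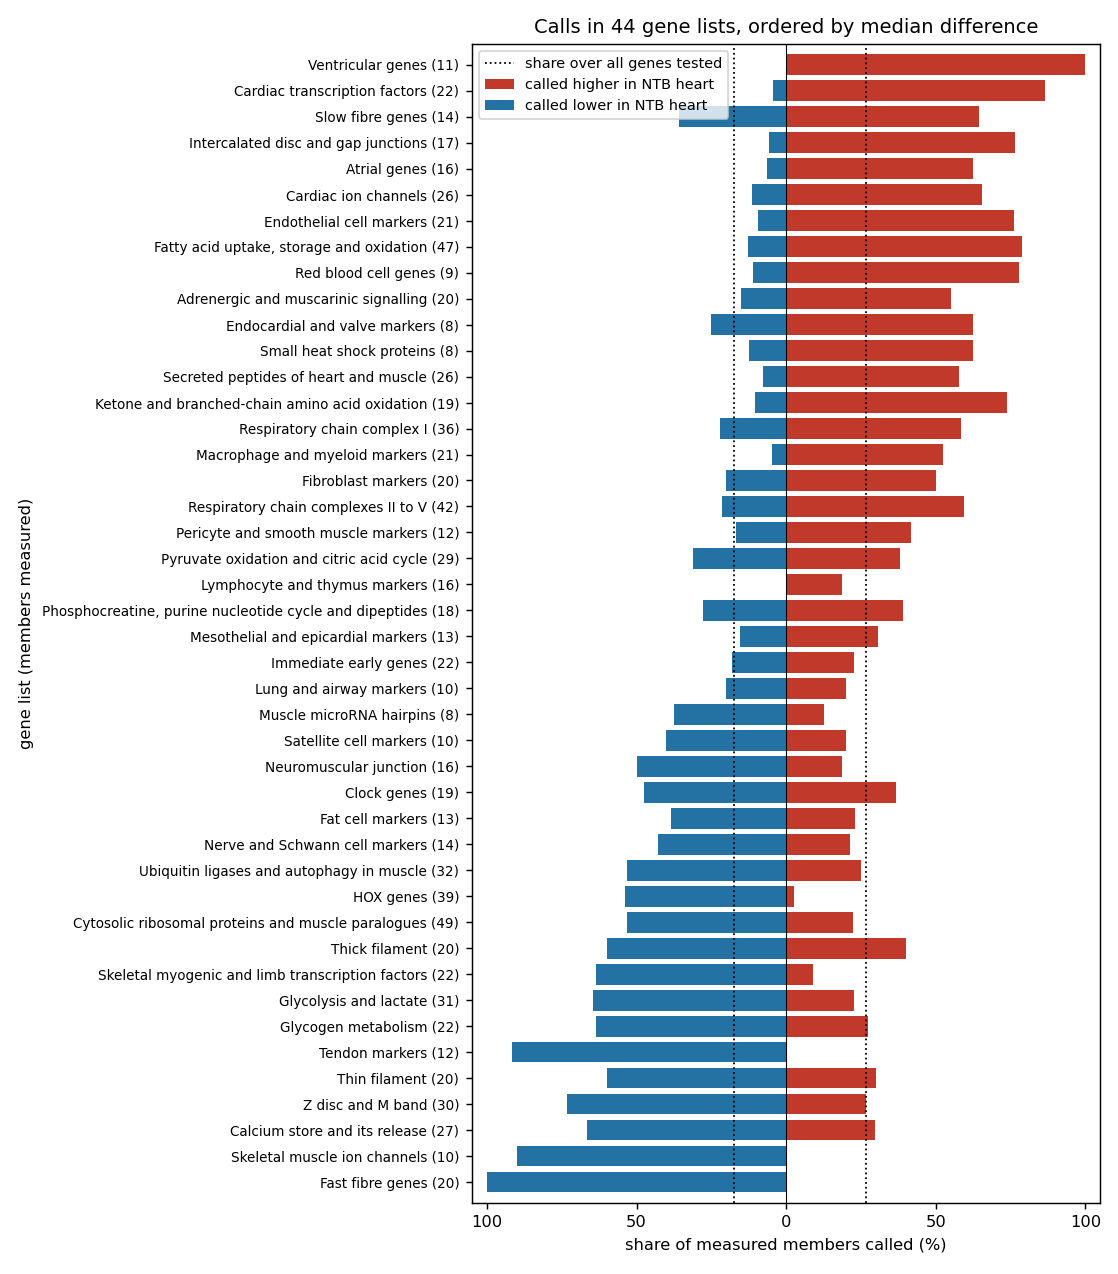
Share of the measured members of 44 gene lists called higher in NTB heart (red, to the right) and lower (blue, to the left), in percent, with the members measured in brackets and the lists ordered by median difference. Dotted lines mark the shares over all 19307 genes, 26.7% higher and 17.3% lower, and ventricular and fast fibre genes form the ends.

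Of 49 cytosolic ribosomal protein genes and paralogues, 26 were lower and 11 higher in NTB heart, with a median of -0.46. Rpl24 had 8.86, 8.66 and 8.75 in NTB hearts and 11.42, 11.22 and 11.36 in NTB gastrocnemius (-2.58 ± 0.11), and Rpl13 differed by -2.04 ± 0.16, while Rps27l and Rpl18 were higher by 1.58 ± 0.13 and 1.34 ± 0.15. Members of one particle thus differed in both directions, and many of these genes have processed copies in the genome with which probes may share signal. The muscle paralogue Rpl3l was lower by -1.30 ± 0.10. In the list of ubiquitin ligases and autophagy genes 17 of 32 were lower and 8 higher, with Asb16 at -2.61 ± 0.15, the Kelch gene Klhl31 at -2.37 ± 0.12, Asb15 at 2.25 ± 0.11 and the autophagosome gene Gabarapl1 at 2.34 ± 0.14. Small heat shock proteins, chaperones of stressed filaments, had 5 of 8 higher, led by Hspb7 (2.72 ± 0.15) and Hspb1 (2.38 ± 0.13), and 1 lower, Hspb2 (-0.80 ± 0.12).

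Marker genes of cells other than muscle fibres also differed between the organs, and their part in the differences above was not tested. Of 21 endothelial markers, 16 were higher and 2 lower in NTB heart, with a median of 0.88, and the mean level of the list was 8.91 to 9.0 over NTB hearts and 8.07 to 8.30 over NTB gastrocnemius. Emcn, a vessel sialoglycoprotein, had 10.71, 10.65 and 10.74 in NTB hearts and 7.64, 7.79 and 7.67 in NTB gastrocnemius (3.00 ± 0.10), whereas the water channel Aqp1 was lower by -1.03 ± 0.12. Of 21 macrophage and myeloid markers, 11 were higher and 1 lower, led by C1qb at 9.70, 9.32 and 9.63 in NTB hearts against 6.12, 7.12 and 6.54 in NTB gastrocnemius (2.96 ± 0.20), while its partner C1qa was not called (0.04 ± 0.20). The mean level of this list was 7.18 to 7.35 over NTB hearts and 6.31 to 6.68 over NTB gastrocnemius. Of 9 red blood cell genes, 7 were higher, with Hba-a1 at 12.67, 12.14 and 12.41 in NTB hearts and 10.56, 10.58 and 10.32 in NTB gastrocnemius (1.92 ± 0.13), and Bpgm, an enzyme red cells use to tune oxygen release, was lower by -3.03 ± 0.15. The list mean was 7.44 to 7.60 over NTB hearts and 6.91 to 7.02 over NTB gastrocnemius.

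Connective tissue split within itself. All but 1 of 12 tendon markers were lower in NTB heart and 0 were higher, with a median of -1.01 and a list mean of 5.88 to 6.0 over NTB hearts and 7.31 to 7.73 over NTB gastrocnemius. Fmod, a collagen-binding proteoglycan of tendon, had 6.89, 7.0 and 6.91 in NTB hearts and 9.98, 10.47 and 9.96 in NTB gastrocnemius (-3.20 ± 0.14), and Tnmd differed by -3.20 ± 0.15. Of 20 fibroblast markers, 10 were higher, led by the matrix gene Postn (2.52 ± 0.12), and 4 were lower, among them Col1a1, which had 8.08, 7.65 and 7.86 in NTB hearts and 10.31, 11.67 and 10.86 in NTB gastrocnemius (-3.08 ± 0.25), and Col1a2 (-2.68 ± 0.19). Gastrocnemius 2 was the highest of the limb muscles for 17 of the 20 fibroblast markers, 9 of the 12 tendon markers, 14 of the 21 macrophage markers and 16 of the 21 endothelial markers. Heart 1 was the highest of the hearts for 14 of the macrophage and 12 of the endothelial markers. Without gastrocnemius 2, 12 fibroblast markers were higher and 4 lower, 11 tendon markers were lower, 13 macrophage markers were higher and 0 lower, and Col1a1 differed by -2.72. Without gastrocnemius 2, and likewise without heart 1, the same 16 endothelial markers were higher and the same 2 lower. The 1 macrophage marker that was lower was not called without heart 1.

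Of the remaining cell types, pericyte and smooth muscle markers had 5 of 12 higher and 2 lower (median 0.2), and endocardial and valve markers 5 of 8 higher and 2 lower. Mesothelial and epicardial markers had 4 of 13 higher and 2 lower (46.2% called, against 44.0% of all genes). Lymphocyte and thymus markers had 3 of 16 higher and 0 lower, with 18.8% called. Lung and airway markers, a check on tissue around the heart, had 2 of 10 higher and 2 lower, 40.0% called, with a list mean of 5.25 to 5.35 over NTB hearts and 5.19 to 5.36 over NTB gastrocnemius, both under the array medians. Fat cell markers had 5 of 13 lower, among them the adipokine Cfd (-1.85 ± 0.25), and 3 higher, among them Pparg (1.71 ± 0.14) and the lipid droplet gene Cidea (1.60 ± 0.15). Heart 1 was the highest of the hearts for 11 of the 13 fat cell markers. Nerve and Schwann cell markers had 6 of 14 lower and 3 higher, among them Cdh19 (1.90 ± 0.20). Gastrocnemius 1 was the highest of the limb muscles for 11 of these 14 markers. Satellite cell markers had 4 of 10 lower and 2 higher.

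The state of the tissue at collection was read from clock and immediate early genes. Of 19 clock genes, 7 were higher and 9 lower in NTB heart, with Npas2 at 1.42 ± 0.14 and Nfil3 at -1.85 ± 0.24. Of 22 immediate early genes, 5 were higher and 4 lower, a share of 40.9% beside 44.0% of all genes, and the largest difference was that of the nuclear receptor Nr4a1, at 8.37, 8.92 and 8.40 in NTB hearts against 11.15, 11.77 and 11.50 in NTB gastrocnemius (-2.91 ± 0.17). Whether tissue or the hour of collection goes with these values was not tested, as no hour is used here.

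The same tissue difference was then read in the 6 C26 arrays, which share no sample with those above. There 6677 genes were called (34.6% of 19307), 4152 higher (21.5%) and 2525 lower (13.1%) in C26 heart. Of the 2668 genes that differed at least 2-fold between NTB heart and NTB gastrocnemius, 2640 had the same sign in C26 mice and 2469 were called with that sign. All 30 genes with the largest NTB differences kept their sign. The difference of the contrasts, NTB minus C26, was called for 769 genes (3.98%), and for 326 of the 2668.

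Among the named genes the largest called difference of contrasts was that of Ostn (-4.32 ± 0.34), which had means of 4.59 in NTB hearts, 10.09 in NTB gastrocnemius, 4.85 in C26 hearts and 6.02 in C26 gastrocnemius. Connective tissue genes were also called, among them Col1a1 (-3.16 ± 0.35), Tnmd (-2.62 ± 0.30) and Col1a2 (-2.61 ± 0.27). Col1a1 was lower in heart than in gastrocnemius in NTB mice (-3.08), but not called in C26 mice (0.08 ± 0.16, adjusted p = 0.76). Actc1 differed by 2.76 in NTB mice and 5.66 in C26 mice, a difference of -2.90 ± 0.38 (adjusted p = 0.000384), with means of 13.91 in NTB hearts, 11.15 in NTB gastrocnemius, 13.74 in C26 hearts and 8.09 in C26 gastrocnemius. Ankrd1 differed by 6.61 in NTB mice and 4.07 in C26 mice (2.55 ± 0.26, adjusted p = 6.13e-05), and its mean was 6.10 in NTB gastrocnemius and 8.46 in C26 gastrocnemius. Jph2 was lower in heart than in gastrocnemius in NTB mice (-0.85) and had a positive difference in C26 mice (0.95). For Actc1, Ankrd1 and Jph2 the gastrocnemius means moved further between NTB and C26 mice than the heart means.

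**Figure D5:**
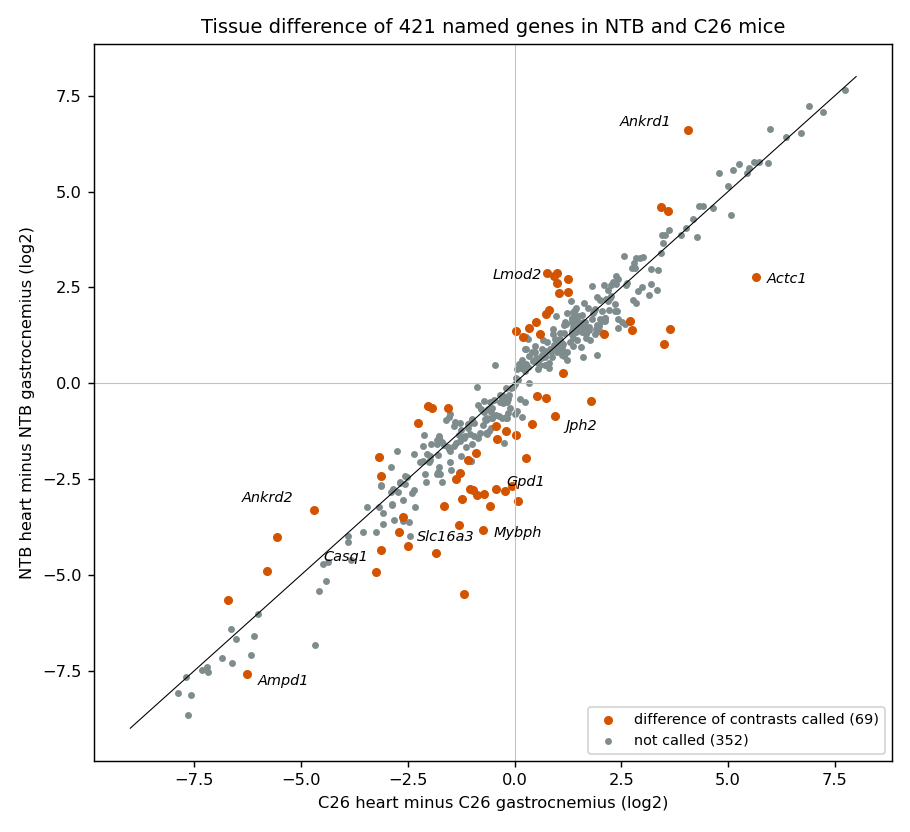
Difference of heart minus gastrocnemius in log2 units in NTB mice (vertical axis) against C26 mice (horizontal axis) for 421 named genes, n = 3 arrays per group, with equal differences on the line. The 69 orange genes had a called difference of contrasts, among them Actc1 (2.76 and 5.66) and Ankrd1 (6.61 and 4.07), and most genes lie near the line.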

How the data were processed

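Total RNA of whole heart and whole gastrocnemius, 250 ng per sample, was labelled with biotin and hybridised to 1-colour arrays, per the labels' protocols. The deposited values are log2 expression values, made by the authors with RMA, which corrects background, normalizes probes between arrays and summarises them per row. The submitters' processing notes list RMA, GCOS, Partek and the build mm8, with no version or role. The values themselves, by their range, showed the log2 scale, and whether the 12 arrays were normalized together is not given in the sources used here. A second deposited table served only for gene names, and its 12 value columns were left aside, since their headers carry codes that were not assigned to arrays, so that whether these mark batches was not tested.

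Of 35556 rows, 23819 had a gene symbol. The deposited symbols stop after 7 characters. Symbols that long received a name only if exactly 1 gene of the RefSeq table (GRCm38.p6) began so, with the start of its accession where given (5102 of 7122 named), and shorter symbols where that table holds them (16591 of 16697, 903 under an older name). In all 21693 rows stood for 19307 genes, and the row with the highest mean over 12 arrays was kept for 1322 genes with several rows. In 264 rows the accession start differed from that of the gene.

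The tests were two-sided and run with limma 3.58.1 in R 4.3.3 on the 6 NTB arrays, with gene variances shrunk towards a trend on mean level (4 residual degrees of freedom, and prior ones of 8.6 at the median). The fit was tested on simulated data. The C26 contrast was fitted on its own 6 arrays, and the difference of contrasts on all 12. The labels call the replicates biological, and no shared animal is stated.

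The part described, its gene lists, pairs and tests were chosen with earlier results of these data known, and 1 list, of microRNA hairpins, was added after the files were seen, before its own values were read. Genes were named by rule: the 15 largest differences in each direction among called genes without overlap of arrays, all pair members, of each list up to 8 called members in its main direction, 4 in the other and 3 not called, and the 10 highest means. Genes beyond this rule are said to be so, and are otherwise the 9 markers per tissue. Alternatives were the fit, the variance model, quantile normalization and centring of arrays, a filter on dim genes, the rows and names used, a 2-fold null, the replicate number as a block and leaving out each NTB array. Some genes are counted in the lists but not reported here by name.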

Additional observations from a re-analysis of the deposited data

Results flagged for a closer look

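The tissue difference of the C26 mice was set beside that of the NTB mice for 84 genes, those with the largest differences and the pair members. For 15 of them the difference of the contrasts, NTB minus C26, was called in limma over all 12 arrays, where 3.98% of all genes were. Values are log2 differences with the standard error after ±, and a positive one means that heart stood higher relative to gastrocnemius in NTB mice than in C26 mice.

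Positive differences of contrasts were found for Ankrd1 (2.55 ± 0.26), the leiomodin Lmod2 (1.61 ± 0.25, adjusted p = 0.00162), Ankrd2 (1.39 ± 0.22) and Nebl (0.89 ± 0.19). Negative ones among filament and store genes were found for Mybph, a myosin binding protein of fast muscle (-3.09 ± 0.28, adjusted p = 2.32e-05), Actc1 (-2.90 ± 0.38), Jph2 (-1.80 ± 0.23), Casq1 (-1.23 ± 0.28), Slc8a3 (-1.08 ± 0.21) and Jph1 (-0.87 ± 0.19). Negative ones among genes of energy use were found for Gpd1 (-2.33 ± 0.22, adjusted p = 2.48e-05), the lactate exporter Slc16a3 (-1.76 ± 0.31), Ampd1 (-1.33 ± 0.22), Ldha (-1.03 ± 0.21) and Eno1 (-0.86 ± 0.16). Mybph differed by -3.84 between NTB heart and NTB gastrocnemius and by -0.74 between C26 heart and C26 gastrocnemius, and Gpd1 by -2.77 and -0.44. Among these 15 genes the sign of the tissue difference was opposite in NTB and C26 mice for Jph2 alone, and over all 421 named genes it was the same for 405. Groups of 3 arrays were not searched for single outlying samples. Over all rows C26 gastrocnemius 3 had a median of 6.09 and an SD of 1.973. The other C26 gastrocnemius arrays had medians of 5.93 and 5.98 and SDs of 2.101 and 2.096. The differences of contrasts were not refitted without C26 gastrocnemius 3.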

How the results depend on the processing

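The counts of genes higher and lower in NTB heart stayed within 1.5 times their values under each alternative except the 2-fold null: limma's test against a difference of 1 log2 unit called 813 genes higher and 496 lower. Leaving out 1 array gave 4512 to 5019 genes higher, 2771 to 3414 lower, 1604 to 1808 at least 2-fold higher and 944 to 1047 at least 2-fold lower. Quantile normalization gave 4558 higher and 4100 lower, and centring of arrays 4523 and 3865, so that 52.6% and 53.9% of the calls were higher, against 60.7%. Of 421 named genes, 364 were tested under every alternative, and 255 had the same call and direction under each alternative in which they were tested (236 of the 364), while 34 lost either under 1 or more alternatives other than the 2-fold null. Direction turned for 2 genes: Tmod1, near 0 throughout, lay between -0.0196 and 0.0173 with 1 array left out, at 0.0173 without NTB gastrocnemius 2, and Lipe, higher by 0.51 in the fit reported, was -0.0083 with the mean of all its rows, a call that the choice of rows decides. Samples of the same replicate number were not treated as paired in the fit reported. The correlations of their deviations were 0.111, 0.106 and 0.078, and each heart correlated best with the muscle of its own number. Between different numbers the correlations lay between -0.0809 and -0.0255. Deviations were taken from the mean of the 3 arrays of a tissue, so positive values for some pairs of arrays force negative ones for others. The negative values are therefore no separate observation. Whether the number marks samples handled together was not tested. With the number as a replicate block 5319 genes were higher and 3512 lower, and for the difference of contrasts 553 genes were called against 769. The cause was not tested for any of these. No depth applies to arrays, and 3 per group limit the precision.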

Other observations

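Genes outside the lists also differed widely, and those named here were chosen after their values were seen. In all, 50 genes in no list were at least 8-fold higher and 39 at least 8-fold lower in NTB heart. Among the higher were Perp, a desmosomal membrane gene, at 10.80, 10.83 and 10.79 in NTB hearts and 5.62, 6.0 and 5.06 in NTB gastrocnemius (5.25 ± 0.19), the prostaglandin synthase gene Ptgds (4.35 ± 0.13), the cardiac myosin light chain kinase gene Mylk3 (4.11) and Tnni3k, a kinase that binds cardiac troponin I (3.68). Hamp, which encodes the iron hormone hepcidin, had 7.59, 8.31 and 9.23 in NTB hearts and 4.53, 4.94 and 4.89 in NTB gastrocnemius (3.59 ± 0.30), so that the hearts spread over more than 1 log2 unit above all limb muscles. Among the lower were H19, an imprinted noncoding RNA (-4.64 ± 0.13), Bin1, which shapes the tubules of the surface membrane (-4.57), carbonic anhydrase 3, Car3 (-3.95), and the human limb-girdle dystrophy genes Ano5 (-4.99) and Capn3 (-3.12).

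One mitochondrial gene stood apart from its neighbours. ND6, the protein gene that the mitochondrial light strand encodes, had 5.74, 6.13 and 5.99 in NTB hearts and 12.13, 11.91 and 11.53 in NTB gastrocnemius (-5.90 ± 0.16, adjusted p = 8.88e-12). The heavy-strand genes ATP6, COX2 and COX3 were not called, at 0.13, 0.08 and 0.08, and ND4L was higher by 1.37 ± 0.19. The ND6 arrays of the tissues lay more than 5 log2 units apart. Which strand the probes of this row read is not given in the sources used here, so that the value may be that of ND6 or of the transcript opposite it. In C26 mice ND6 differed by -5.67 between heart and gastrocnemius.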
